A study of Mus musculus with 22 samples.

Results

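The solute carriers (SLC) were followed here through the H3K4me3 mark at their promoters in mouse synovial fibroblasts. A region was a member when its annotated gene symbol began with Slc and a number and its class was proximal promoter, promoter within 1 kb or promoter within 3 kb of a transcription start site (TSS). By that rule 139 of the 7770 listed promoter regions, and of 26201 listed regions of any class, were members. They belonged to 102 genes of 30 families: 61 regions stood in the list for Tg197 against wild type (WT) at 3 weeks, 19 at 8 weeks, 30 at 11 weeks and 29 in the list for TNF-treated against untreated WT cells. RefSeq holds 384 symbols of this form, so most carriers had no listed promoter region and therefore no value. A region entered a list only if its best window had reached p of 0.0001 or lower in the submitters' comparison, so a listed member had already been picked for a difference. Symbol matching also took in 4 genes that are not transporters, the adaptors Slc9a3r1 and Slc9a3r2, Slc4a1ap, and the neighbouring gene Slc7a6os.

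Cells were synovial fibroblasts of CBA x C57BL/6J mice at passages 4-5, and chromatin was immunoprecipitated with an H3K4me3 antibody. Tg197 is a mouse line in which a transgene for human TNF leads to arthritis; the labels do not say which cells it is expressed in. WT mice of the same strain were the controls. The groups were Tg197 and WT at 3, 8 and 11 weeks of age, which the series calls early, established and late, and WT cells from mice aged 8 weeks given TNF, each with 3 libraries (21 in all), besides 1 input library from mixed genotypes. Column headers give no genotype, only control or treatment, and the controls were taken to be WT. Control read counts shared between both 8-week tables bear on this reading directly, and it was carried over to 3 and 11 weeks. The sources used here give neither dose and duration of the TNF treatment nor whether replicates came from separate animals, so the p-values measure the spread between these libraries, which may be technical.

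Solute carriers are membrane proteins that move nutrients, ions, metals and metabolites across the plasma membrane or the membranes of organelles, either down a gradient or coupled to another ion. Each family, marked by the number after Slc, shares sequence and usually a class of substrate. H3K4me3 is a histone mark concentrated around the start sites of active or poised genes, and fibroblasts activated by TNF are known to change their glucose, amino acid and metal metabolism.

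The promoter sequences of 6 carriers are shown because they were past the authors' threshold in more than 1 comparison and a called region covered the whole stretch before the start site: Slc2a6 and Slc46a1 among genes higher at more than 1 age, Slc1a3 and Slc44a2 among genes lower at more than 1 age, Slc6a9, which was lower at 8 weeks and with TNF, and Slc23a2, which was lower in one comparison and higher in another. For Slc2a6, Slc44a2, Slc6a9 and Slc23a2 the called regions of different comparisons shared no bases. Each sequence is the 250 bases upstream of the start site from RefSeq, build GRCm38.p6, written 5′ to 3′ on the gene's strand, with the matches to the searched motifs in capitals. The intervals are chr2:27027999-27028248, minus strand, for Slc2a6, chr11:78465451-78465700, plus strand, for Slc46a1, chr15:8710808-8711057, minus strand, for Slc1a3, chr9:21337578-21337827, plus strand, for Slc44a2, chr4:117835008-117835257, plus strand, for Slc6a9, and chr2:132145109-132145358, minus strand, for Slc23a2.
Slc2a6: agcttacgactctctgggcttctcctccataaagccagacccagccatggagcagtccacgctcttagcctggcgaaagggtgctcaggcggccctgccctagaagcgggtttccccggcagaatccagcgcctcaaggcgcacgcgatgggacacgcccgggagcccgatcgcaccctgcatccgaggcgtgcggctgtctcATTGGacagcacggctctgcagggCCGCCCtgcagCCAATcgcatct
Slc46a1: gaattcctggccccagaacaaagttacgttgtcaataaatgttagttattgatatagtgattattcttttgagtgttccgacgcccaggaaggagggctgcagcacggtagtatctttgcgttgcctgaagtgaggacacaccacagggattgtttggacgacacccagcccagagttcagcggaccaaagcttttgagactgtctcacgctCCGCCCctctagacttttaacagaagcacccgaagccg
Slc1a3: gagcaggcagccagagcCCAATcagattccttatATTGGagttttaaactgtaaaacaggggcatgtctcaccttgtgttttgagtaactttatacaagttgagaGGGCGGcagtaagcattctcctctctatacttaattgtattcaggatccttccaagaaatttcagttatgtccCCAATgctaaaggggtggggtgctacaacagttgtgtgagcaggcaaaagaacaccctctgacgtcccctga
Slc44a2: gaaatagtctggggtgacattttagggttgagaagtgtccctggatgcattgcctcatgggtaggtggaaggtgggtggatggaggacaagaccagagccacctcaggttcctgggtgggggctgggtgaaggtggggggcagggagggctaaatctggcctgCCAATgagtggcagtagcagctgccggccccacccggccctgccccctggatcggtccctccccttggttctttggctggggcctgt
Slc6a9: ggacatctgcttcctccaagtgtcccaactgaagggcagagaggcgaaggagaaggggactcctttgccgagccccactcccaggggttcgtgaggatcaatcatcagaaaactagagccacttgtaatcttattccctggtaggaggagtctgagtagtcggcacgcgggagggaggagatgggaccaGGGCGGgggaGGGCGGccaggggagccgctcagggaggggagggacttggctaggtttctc
Slc23a2: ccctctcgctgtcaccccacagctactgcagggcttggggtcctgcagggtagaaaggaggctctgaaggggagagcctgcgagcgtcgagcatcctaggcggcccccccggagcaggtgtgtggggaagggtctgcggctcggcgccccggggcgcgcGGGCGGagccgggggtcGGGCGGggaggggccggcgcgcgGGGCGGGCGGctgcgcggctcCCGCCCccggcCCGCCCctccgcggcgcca

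The motifs searched on both strands were the NF-kB motif, CRE (TGACGTCA), AP-1 (TGANTCA), the E-box (CACGTG), the CCAAT box and the GC box (GGGCGG). The Slc23a2 window held 6 GC boxes, of which a pair overlap each other, the Slc1a3 window held 3 CCAAT boxes and 1 GC box, the Slc2a6 window held 2 CCAAT boxes and 1 GC box, the Slc46a1 window held 1 GC box, the Slc6a9 window held 2 GC boxes and the Slc44a2 window held 1 CCAAT box. No NF-kB motif lay in these 6 windows. Among 108 RefSeq promoters of member genes, 63.0% held a GC box, against 32.7% of all 32851 promoters, while CCAAT was in 26.9% against 33.8%, the E-box in 9.26% against 6.02%, the NF-kB motif in 8.33% against 7.25%, AP-1 in 3.7% against 6.75% and CRE in 0.926% against 1.55%. The observed to expected CpG ratio had a median of 0.74 over the 82 member genes with a sequence and 0.40 over all RefSeq promoters. All RefSeq promoters include those of genes without a listed H3K4me3 region, whereas members were picked for having one. Shares over the other listed promoters were not computed, so these differences are not a result about solute carriers. In the printed windows this ratio was 0.76 for Slc2a6, 0.72 for Slc46a1, 0.81 for Slc23a2, 0.42 for Slc6a9, 0.16 for Slc1a3 and 0.13 for Slc44a2.

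The listed regions held 1560963 to 2780941 reads per library at 3 weeks, 390496 to 849692 at 8 weeks, 807633 to 1096917 at 11 weeks and 321448 to 1312112 in the TNF comparison. Solute carrier promoters held 2412 to 19674 of those reads in any library. Among fixed markers of synovial fibroblasts with a listed promoter region, Pdpn was higher at 3 and 8 weeks and after TNF, Vcam1 and Pdgfrb were higher at 3 and 11 weeks, Thy1 at 8 weeks and Pdgfra and Col6a1 at 11 weeks, while Col1a1 and Col6a1 were lower at 3 weeks and Pdgfrb after TNF. Of listed markers of leukocytes, muscle, cartilage, bone, fat and epithelium, such as Itgam, Ckm, Comp, Sp7 and Cdh1, all were lower. Itgam, Ckm and Cdh1 had these regions 1 to 3 kb from the start site, while Sp7 and Comp also had some within 1 kb. Of all listed promoter regions at 3 weeks, 97.2% were lower 1 to 3 kb upstream, 82.0% 1 to 3 kb downstream and 58.8% at any position. In the endothelial list Tek was lower, Flt1 higher at 3 weeks and Pecam1 higher at 11 weeks. The part of other cell types in the solute carrier results was not tested.

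Counted by the submitters' adjusted p of 0.05, 22 SLC promoter regions were higher and 38 lower in Tg197 at 3 weeks. The counts were 7 and 9 at 8 weeks, and 12 and 14 at 11 weeks. TNF treatment gave 10 higher and 16 lower. Across the lists this made 51 higher, 77 lower and 11 not past the threshold. As a share of members, higher regions made up 36.1%, 36.8% and 40.0% at 3, 8 and 11 weeks and 34.5% under TNF; among all listed promoter regions they made up 39.7%, 44.4%, 46.6% and 38.9%. Lower regions were 62.3%, 47.4%, 46.7% and 55.2% of members, and 58.8%, 51.9%, 47.3% and 57.1% of all listed promoter regions. Shares this near the background are not a result about solute carriers as a class, and what follows is about which carriers moved and where.

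A second test was fitted to all listed regions with limma on log2(normalized reads + 0.5), and "rose" and "fell" below refer to its adjusted p of 0.05, while "higher" and "lower" refer to the authors' deposited adjusted p. At 3 weeks 10 SLC regions rose and 38 fell, at 11 weeks 13 rose and 16 fell, and with TNF 9 rose and 10 fell. Over all listed promoter regions limma called 18.7% risen and 58.3% fallen at 3 weeks, 45.3% and 46.8% at 11 weeks, and 26.1% and 26.6% with TNF. At 8 weeks limma called no region risen (0.0%) or fallen (0.0%), of solute carriers or of all 1170 promoter regions, and its variant voom made no SLC call there either; 10 of the 19 SLC regions and 648 of the 1170 had an unadjusted p under 0.05. The limma counts depended on single libraries in every list but that of 11 weeks. Without the WT library c at 3 weeks no SLC region fell, and without WT library b or c none rose; without Tg197 library c 17 rose, without Tg197 library a 6 did and without WT library a 2 did. At 8 weeks, without WT library c, 4 rose and 10 fell. With TNF, leaving out TNF library b or c or WT library a or b gave 0 in each direction, and leaving out WT library c gave 10 and 16. Every treated library lay on one side of every control in 16 SLC regions above and 38 below at 3 weeks, 6 and 8 at 8 weeks, 14 and 15 at 11 weeks, and 11 and 12 under TNF, leaving 7, 5, 1 and 6 where the groups overlapped. Groups that did not overlap made up 83.4%, 73.6%, 93.4% and 75.5% of all listed promoter regions in the same order.

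The direction of many lower regions depended on how libraries were scaled. With the authors' normalization the median log2 change over all listed regions was -0.70, -0.86 and -0.60 at 3, 8 and 11 weeks and -0.58 under TNF. Scaling each library to its median over listed regions moved these median changes to -0.04, -0.15, -0.26 and -0.07. Scaling to its median over the regions lying within 1 kb of a start site moved them to -1.04, -0.99, -0.74 and -0.69. On the first of these scales 18 of the 38 lower SLC regions at 3 weeks became positive, 3 of 9 at 8 weeks, 0 of 14 at 11 weeks and 7 of 16 under TNF, while no higher region became negative. Few calls of a decrease were left on that scale: of the 38, 16 and 10 SLC regions that fell by limma at 3 weeks, at 11 weeks and with TNF, the counts fell to 0, 1 and 1, and the SLC median at 11 weeks moved from -0.34 to -0.001. On the other, 5 of the 22 higher SLC regions at 3 weeks became negative (Slc16a3, Slc16a6, Slc22a17, Slc25a1 and Slc39a14) and no lower region became positive. The medians over SLC regions were -0.59, -0.53, -0.34 and -0.45, beside -0.54, -0.47, 0.09 and -0.41 over all promoter regions.

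Where the region lay relative to the start site went with the direction of change. At 3 weeks all 12 SLC regions centred 1 to 3 kb upstream were lower, whereas 10 of the 11 centred within 250 bp of the TSS were higher, the exception being Slc1a3. From 250 bp to 1 kb downstream 8 of 12 were higher, and from 1 to 3 kb downstream 3 of 19 were. All listed promoter regions had the same arrangement, with 87.9% higher within 250 bp and 2.33% higher 1 to 3 kb upstream. The median distance of the region's centre from the TSS was 279.5 bp for higher and 1775 bp for lower SLC regions at 3 weeks, 652.5 and 847.5 bp at 8 weeks, then 460 and 1437.5 bp at 11 weeks, and 1002.5 and 1055.5 bp under TNF. With TNF, 3 of 11 SLC regions 250 bp to 1 kb downstream were higher, beside 62.9% of all promoter regions there, a difference that was not tested. Over all listed promoter regions at 8 weeks, 66.1% were higher from 250 bp to 1 kb downstream and 44.0% from 1 to 3 kb downstream. At 11 weeks those shares were 60.1% and 41.8%, with 68.9% within 250 bp and 20.3% from 1 to 3 kb upstream. Counts of higher and lower regions in the groups of carriers below therefore stand beside these shares by position, and none of them was tested as a property of the group.

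**Figure D1:**
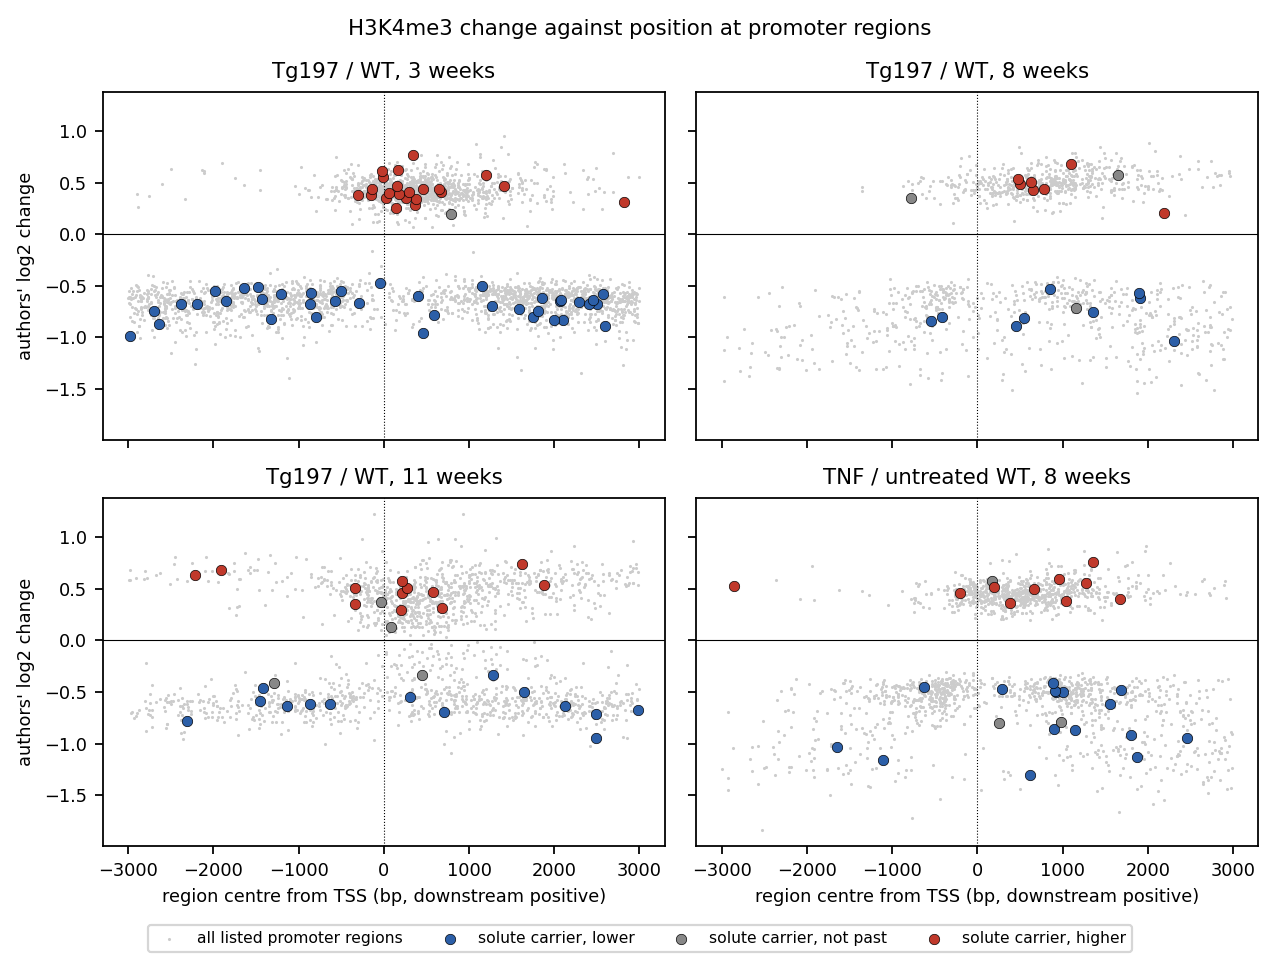
Log2 change of H3K4me3 (y axis, from the authors' tables) against the distance of each region's centre from the TSS in bp (x axis, downstream positive) in the 4 comparisons. Grey dots are all listed promoter regions and large dots the SLC regions, red where higher, blue where lower and grey where not past the adjusted p of 0.05; at 3 weeks the red dots gather close to the TSS and the 12 farthest upstream are all blue.

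By the authors' calls, some genes carried listed regions of opposite direction in the same comparison. For Slc22a17, an organic ion transporter family member, the 3-week region centred 367.5 bp downstream was higher by 0.28 in log2, with 351, 368 and 364 normalized reads in Tg197 and 295, 288 and 307 in WT. A region centred 1267.5 bp downstream, which shared 300 bp with the first, was lower, with a log2 change of -0.69 and 80.3, 73.6 and 70.6 against 119, 104 and 140.5. Both differences separated the groups, but limma called only the lower region (adjusted p = 0.015, against 0.105 for the higher). Scaled to listed regions the lower region's change was -0.013, and scaled to regions within 1 kb the higher region's was -0.051. At 11 weeks Slc35b1, which takes ATP and ADP across the endoplasmic reticulum membrane, had a higher region 334.5 bp upstream (0.35) and a lower one 1134.5 bp upstream (-0.64), sharing 200 bp. The 11-week Slc9a8 regions were higher 2219.5 bp upstream (0.63) and lower 2980.5 bp downstream (-0.67). The TNF regions of Slc29a1 were higher 2859.5 bp upstream (0.53) and lower 290.5 bp downstream (-0.47). In that lower Slc29a1 region the groups overlapped and limma's adjusted p was 0.066. Its change became positive when scaled to listed regions (0.071) and by enrichment over input (0.669). A change of sign between tables can likewise go with a change of position, as for Slc23a2 below.

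The metal carriers had 11 regions in 9 genes, of which 7 were higher, 3 lower and 1 not past the threshold. Among all listed promoter regions 39.7%, 44.4% and 46.6% were higher at 3, 8 and 11 weeks and 38.9% with TNF. Scaled to listed regions 1 lower region (Slc30a3) became positive, and scaled to regions within 1 kb 1 higher region (Slc39a14 at 3 weeks) became negative. Slc39a14 (ZIP14) brings zinc, iron and manganese into cells and is known to be induced in inflammation. It was higher in 3 lists, at chr14:70750601-70751800 over the start site at 3 weeks and, farther into the gene, at chr14:70749301-70750600 with TNF and chr14:70748201-70750500 at 11 weeks (mm9), of which the last pair overlap. At 11 weeks the Tg197 libraries held 409, 424 and 414 normalized reads and the WT libraries 277, 313 and 269.6. TNF-treated cells held 365, 457 and 477 and untreated cells 302, 268 and 313. In both lists every treated library lay above every control, and limma gave a log2 change of 0.54 ± 0.09 (SE, adjusted p = 0.0043) at 11 weeks and 0.55 ± 0.14 (SE, adjusted p = 0.046) with TNF. At 3 weeks the Tg197 values were 316, 391 and 254 against 242, 246 and 266 in WT. The lowest Tg197 library fell among the WT libraries there, and limma's adjusted p was 0.11.

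At 8 weeks 3 metal carriers were higher, Slc31a2 and Slc39a10 from 250 bp to 1 kb downstream and Slc30a4 from 1 to 3 kb downstream. Of all listed promoter regions at those positions, 66.1% and 44.0% were higher. Slc30a4 (ZnT4), which exports zinc from the cytosol, had 225, 202 and 197 normalized reads in Tg197 and 74.6, 173 and 143 in WT, a log2 change of 0.68. Slc31a2, linked to copper handling, had 258, 231 and 240.0 against 165, 179 and 155, a change of 0.54. For both genes the groups did not overlap, and 1 WT library was far below the others for Slc30a4. Slc39a10, a zinc importer, had 333, 314 and 321 against 189, 201 and 329. One WT library stood above 2 of the Tg197 libraries for Slc39a10. At 11 weeks the zinc carrier Slc30a6 rose by 0.46 ± 0.12 (SE, limma adjusted p = 0.0045), with 335, 293 and 399 against 251, 262 and 231, and Slc39a6 rose by 0.37 ± 0.11 (SE, limma adjusted p = 0.0058) although the authors' deposited adjusted p was 0.14. Both had every Tg197 library above WT. Lower metal carriers were Slc30a2 (-0.87) and Slc30a3 (-0.60) at 3 weeks, and Slc39a5 with TNF. Slc39a5, a zinc importer of epithelia, had the most negative log2 change of any member in the TNF list, -1.31, with 139, 53.4 and 102 in TNF-treated and 279.7, 276 and 174 in untreated cells (chr10:127836201-127837600).

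The phosphate importer Slc20a1 (PiT-1) was the other carrier higher in 3 lists, at a different position in each. At 11 weeks, in a region 1907.5 bp upstream (chr2:129021901-129023300), Tg197 held 197, 172 and 148 normalized reads and WT 96, 108 and 118, and limma's log2 change was 0.68 ± 0.15 (SE, adjusted p = 0.0043). With TNF, 1042.5 bp downstream, the values were 269.5, 284 and 262 against 211, 206 and 211. The untreated libraries differed little from each other there, and the region rose by 0.38 ± 0.12 (SE, limma adjusted p = 0.046). At 3 weeks, 307.5 bp upstream, Tg197 held 300.4, 402 and 265 and WT 248, 255 and 239. The groups did not overlap, but 1 Tg197 library was far above the other two, and limma's adjusted p was 0.08.

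**Figure D2:**
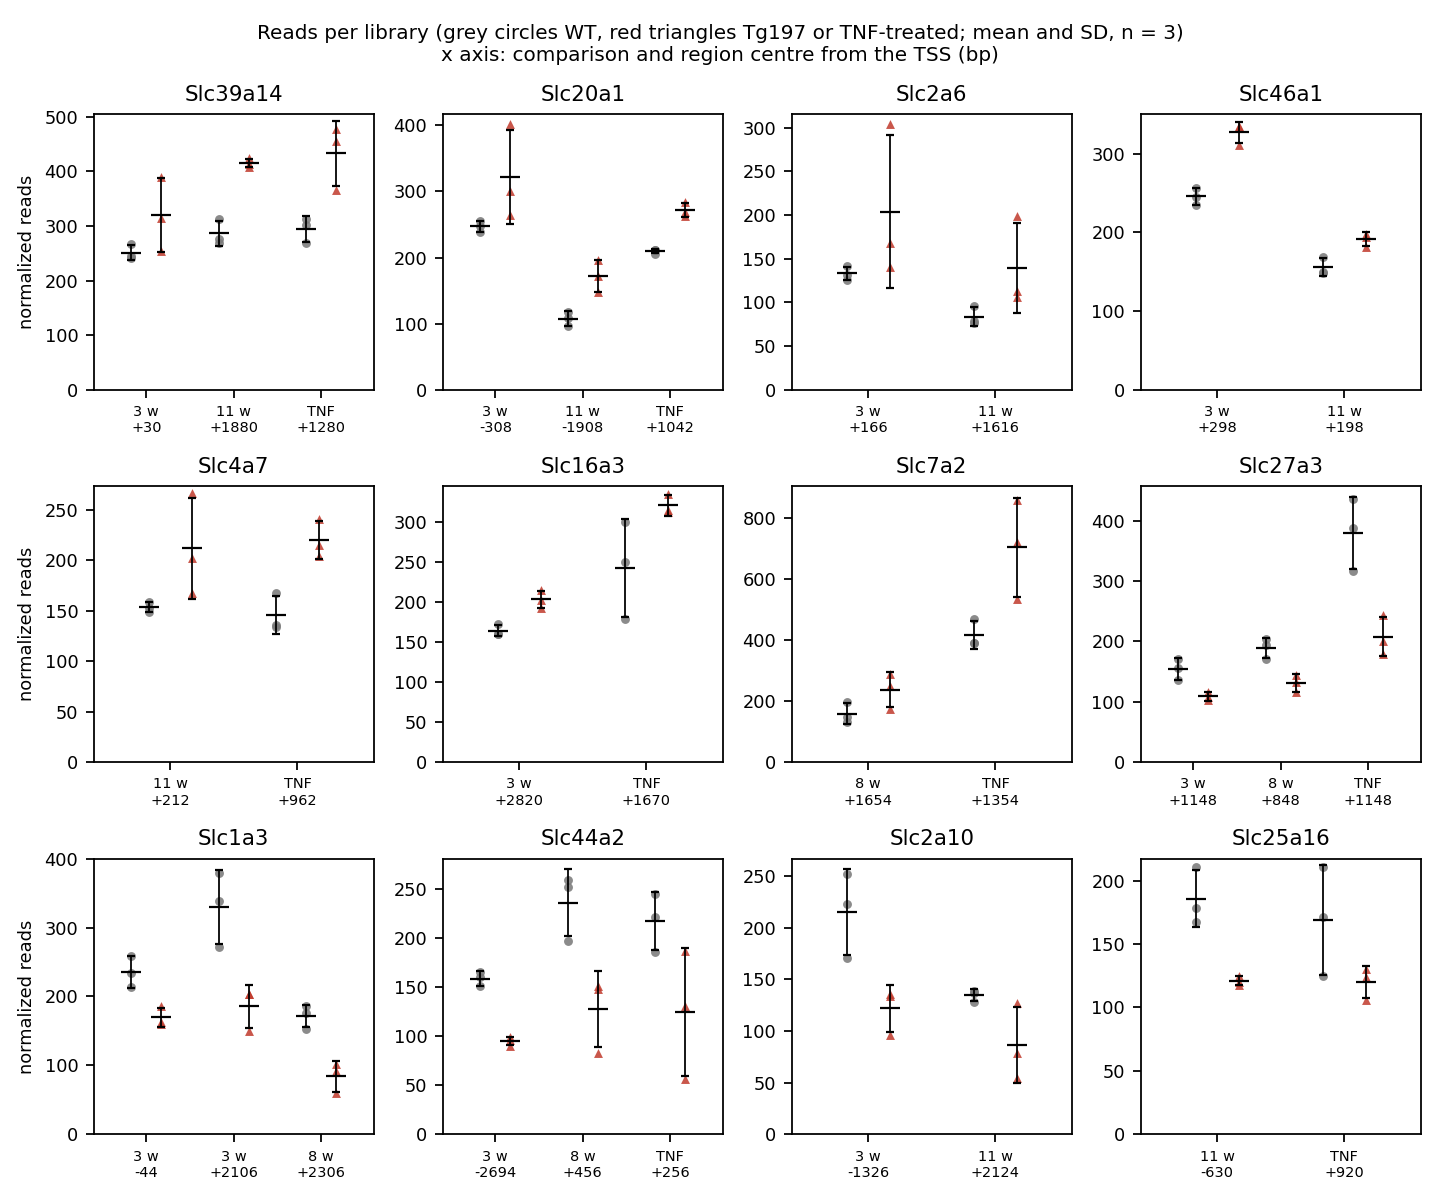
Normalized H3K4me3 reads per library (y axis, linear from 0) in every listed promoter region of 12 solute carriers; the x axis gives the comparison and the distance of the region's centre from the TSS in bp. Grey circles are WT libraries, red triangles Tg197 or TNF-treated libraries, and bars the mean and SD of 3; Slc39a14 and Slc20a1 are higher in 3 comparisons and Slc27a3 is lower in 3, except that Slc39a14 at 3 weeks became negative when scaled to regions within 1 kb and Slc27a3 at 3 and 8 weeks positive when scaled to listed regions.

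The sugar carriers had 3 regions higher and 5 lower, of which Slc2a7 became positive when scaled to listed regions. At 3 and 11 weeks, where they were listed, 39.7% and 46.6% of all listed promoter regions were higher and 58.8% and 47.3% lower. Slc2a6 (GLUT6), a glucose transporter family member found in intracellular membranes, was higher at 3 and 11 weeks. At 3 weeks the region over its start site (chr2:26882701-26884000), which covers the printed sequence, held 168, 140.3 and 304 normalized reads in Tg197 and 126, 132 and 142 in WT. One Tg197 library lay just below the highest WT library while another was far above all, and limma's adjusted p was 0.055. At 11 weeks the region 1616.5 bp downstream held 199, 107 and 113 against 96, 76.8 and 78.6. All 3 Tg197 libraries were above WT and the region rose by 0.68 ± 0.22 (SE, limma adjusted p = 0.0099). Slc2a1 (GLUT1), the main glucose importer of most cells, was higher at 3 weeks with 420.5, 548 and 221 against 239, 288 and 267. Here the Tg197 libraries spanned the WT range, with the lowest library of all among them, and limma's adjusted p was 0.099. Slc2a10 (GLUT10) was lower at 3 weeks 1326.5 bp upstream (-0.82), with 134, 95.7 and 136 against 223, 171 and 253. At 11 weeks it was lower in a separate region 2123.5 bp downstream (-0.64), with 54.6, 127 and 78.7 against 139, 128 and 137. Both regions fell by limma (adjusted p = 0.014 and 0.012). The other lower members were Slc2a7 (-0.55) and the iodide importer Slc5a5 (-0.74) at 3 weeks and the inositol importer Slc5a3 (-0.62) at 11 weeks.

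Among carriers of monocarboxylates and fatty acids, 3 regions were higher, 7 lower and 2 not past the threshold; 3 of the lower ones became positive when scaled to listed regions, and 2 of the higher ones negative when scaled to regions within 1 kb. Slc16a3 (MCT4), which exports lactate from glycolytic cells, was higher at 3 weeks 2820.5 bp downstream, with 215, 203 and 193 normalized reads in Tg197 and 172, 159.8 and 160.2 in WT. With TNF it was higher in a separate region 1670.5 bp downstream, with 315, 336 and 312 against 300.3, 178 and 249.9. The groups did not overlap in either list, but limma's adjusted p was 0.083 and 0.06. Slc16a6 was higher at 3 weeks by 0.26, and Slc16a9 rose with TNF by 0.58 ± 0.20 (SE, limma adjusted p = 0.046) although the authors' deposited adjusted p was 0.19. The 6 regions of family 27, proteins that take up fatty acids and activate them to acyl-CoA, had 5 lower and none higher, of which 3 (Slc27a3 at 3 and 8 weeks and Slc27a4 downstream) became positive when scaled to listed regions. Of the 5, 3 lay 1 to 3 kb from a start site at 3 weeks. There 97.2% of all listed promoter regions upstream and 82.0% downstream were lower. Slc27a3 was lower in 3 lists, in regions that overlap each other around chr3:90192201-90193200. Its values were 107, 102 and 117 against 155, 135 and 171 at 3 weeks, 116, 132 and 145 against 203, 195 and 171 at 8 weeks, and 244, 179.8 and 200.3 against 436, 388 and 316 with TNF. Every treated library was below every control in all 3, and the region fell by limma at 3 weeks (-0.50 ± 0.18 SE, adjusted p = 0.02) and with TNF (-0.87 ± 0.17 SE, adjusted p = 0.046). The 8-week Tg197 and TNF lists share their WT libraries, so their values are not independent. Slc27a4 was lower at 3 weeks on both sides of its start site (-0.68 upstream and -0.68 downstream), and fell at 11 weeks by 0.34 on the log2 scale (limma adjusted p = 0.01; -0.001 when scaled to listed regions) with an authors' deposited adjusted p of 0.30. Slc16a11 fell with TNF (-1.16) and Slc16a8, a lactate carrier of the retinal pigment epithelium, fell at 11 weeks (-0.46).

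The amino acid carriers were the largest group, with 25 regions in 20 genes, 8 higher, 16 lower and 1 not past the threshold; 6 of the lower ones became positive when scaled to listed regions. Slc1a5 (ASCT2), an importer of glutamine and other neutral amino acids, rose at 3 weeks, with 597, 687 and 566 normalized reads in Tg197 and 452, 469 and 444 in WT (log2 change 0.43 ± 0.17 SE, limma adjusted p = 0.031). Slc36a4, at 3 weeks, and its relative Slc36a1, which exports amino acids from lysosomes with protons, at 11 weeks, also rose, by 0.55 ± 0.19 (SE, limma adjusted p = 0.018) and 0.51 ± 0.12 (SE, limma adjusted p = 0.0044). For these 3 genes every Tg197 library was above every WT library. Slc1a6 rose at 3 weeks by 0.38 ± 0.16 (SE, limma adjusted p = 0.042). Slc15a4, an endolysosomal histidine and peptide carrier, was higher at 3 weeks by 0.47 with overlapping groups.

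Slc7a2 (CAT2) imports arginine and other cationic amino acids and is known to be induced in inflamed cells. With TNF its region from chr8:41947901-41950300 held 535, 859 and 722 normalized reads, against 389.5, 471 and 389 without TNF, a 1.69-fold difference of the means. All TNF libraries were above the untreated ones, and limma gave 0.74 ± 0.19 (SE, adjusted p = 0.046). This was the largest increase with TNF among members. In Tg197 at 8 weeks a region inside the same stretch held 249, 174 and 288 against 148, 196 and 131; the groups overlapped and the authors' deposited adjusted p was 0.35. The partners Slc7a5 (LAT1) and Slc3a2 (CD98 heavy chain), which together form a carrier of large neutral amino acids, were both higher at 8 weeks. Slc7a5 had 422, 268 and 241 against 209, 234 and 241, where 1 Tg197 library was far above the rest and the groups overlapped. Slc3a2 had 434, 414 and 435 against 341, 397 and 369, a change of 0.21 with no overlap.

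The glutamate importer Slc1a3 (EAAT1) was lower at 3 weeks at its start site and at 2105.5 bp downstream, and at 8 weeks in that same downstream stretch. Over the start site (chr15:8660301-8661400), which covers the printed window, Tg197 held 186, 161 and 163 normalized reads and WT 259, 235 and 213. Downstream the values were 203, 150.2 and 204 against 379, 339 and 272 at 3 weeks and 59.3, 102 and 91.1 against 186, 176 and 154 at 8 weeks. Tg197 libraries were below WT throughout on the authors' scale (the start-site change became positive, 0.20, when scaled to listed regions, and was 0.061 by the authors' enrichment over input), with limma changes at 3 weeks of -0.47 ± 0.17 (SE, adjusted p = 0.02) and -0.83 ± 0.19 (SE, adjusted p = 0.014). All 6 regions of family 38, sodium-coupled or related carriers of small neutral amino acids, were lower, beside 97.2% and 82.0% of all listed promoter regions 1 to 3 kb upstream and downstream at 3 weeks, where 4 of the 6 lay: Slc38a3 at both its regions, Slc38a6, Slc38a9, the amino acid sensor of the lysosome, and Slc38a10 at 3 weeks, and Slc38a2 (SNAT2) at 11 weeks; Slc38a3 downstream, Slc38a6 and Slc38a10 became positive when scaled to listed regions, and Slc38a2 moved to 0 there (adjusted p = 1). Slc38a2 held 293, 338 and 348 against 401, 419 and 420.2 and fell by 0.34 ± 0.09 on the log2 scale (SE, limma adjusted p = 0.0048). The steepest of the family at 3 weeks was Slc38a9 (-0.99), 2982.5 bp upstream. The arginine importer Slc7a1 (-0.68) and Slc7a6 (-0.51) were lower at 3 weeks. At 11 weeks the glutamate importer Slc1a1 (-0.71), the serotonin transporter Slc6a4 (-0.55) and the taurine importer Slc6a6 (-0.50) fell. The glycine importer Slc6a9 (GlyT1) was lower at 8 weeks 411.5 bp upstream (86.6, 95.7 and 81.6 against 179.8, 163 and 117). With TNF a separate region 1688.5 bp downstream was lower (128, 131 and 128 against 228, 195 and 118), where 1 control library was below the treated ones. Limma's adjusted p for that TNF region was 0.15. Its change became positive when scaled to listed regions (0.079) and by enrichment over input (0.738).

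The mitochondrial carriers of family 25 exchange metabolites, nucleotides and cofactors between cytosol and matrix. Of their 21 regions in 16 genes 15 were lower, 3 higher and 3 not past the threshold. With TNF 6 of 7 regions were lower and none higher, beside 57.1% lower among all listed promoter regions, and none of the 7 lay within 250 bp of a start site; scaled to listed regions 6 of the 15, 3 of them in the TNF list, became positive. Slc25a10, the dicarboxylate carrier, was lower on both sides of its start site, with 101, 69.7 and 68.2 normalized reads against 204, 164 and 121 upstream and 221, 137 and 181 against 393, 353 and 275 downstream. Slc25a39, linked to glutathione import, had 99.5, 50.1 and 101 against 242, 178 and 128. All 3 regions separated the groups and fell by limma (adjusted p = 0.046 for each). Slc25a11, the oxoglutarate carrier, fell by 0.41 (limma adjusted p = 0.049), while Slc25a16 (-0.50) and Slc25a35 (-0.45) were lower but not past limma's threshold. The same 2 genes were lower in Tg197 at other stretches, which shared no bases with the TNF regions. Slc25a16 at 11 weeks, 629.5 bp upstream (920.5 bp downstream with TNF), had 119.9, 125 and 118 against 211, 179 and 167. Slc25a35 at 3 weeks, 2068.5 bp downstream (631.5 bp upstream with TNF), had 151, 116 and 159 against 204, 205 and 260.0. Scaled to listed regions, Slc25a16 with TNF (0.039) and Slc25a35 at 3 weeks (0.017) and with TNF (0.057) became positive. The Slc25a16 groups overlapped with TNF. In Tg197 Slc25a40 (-0.69) and the S-adenosylmethionine carrier Slc25a26 (-0.78) fell at 11 weeks, and at 8 weeks the iron importer Slc25a37 (mitoferrin-1) was lower (-0.84) with widely spread WT libraries (237, 167 and 90.4). At 3 weeks Slc25a34 (-0.83), the ornithine carrier Slc25a15 (-0.57) and both regions of Slc25a17, a peroxisomal member of the family, fell. Among the higher ones were the citrate carrier Slc25a1 (0.35, groups overlapping) and Slc25a46 (0.40), at 3 weeks. Not past the authors' threshold were the iron importer Slc25a28 (mitoferrin-2) at 8 weeks (0.35), Slc25a39 at 11 weeks (0.13) and Slc25a42 with TNF (-0.79).

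**Figure D3:**
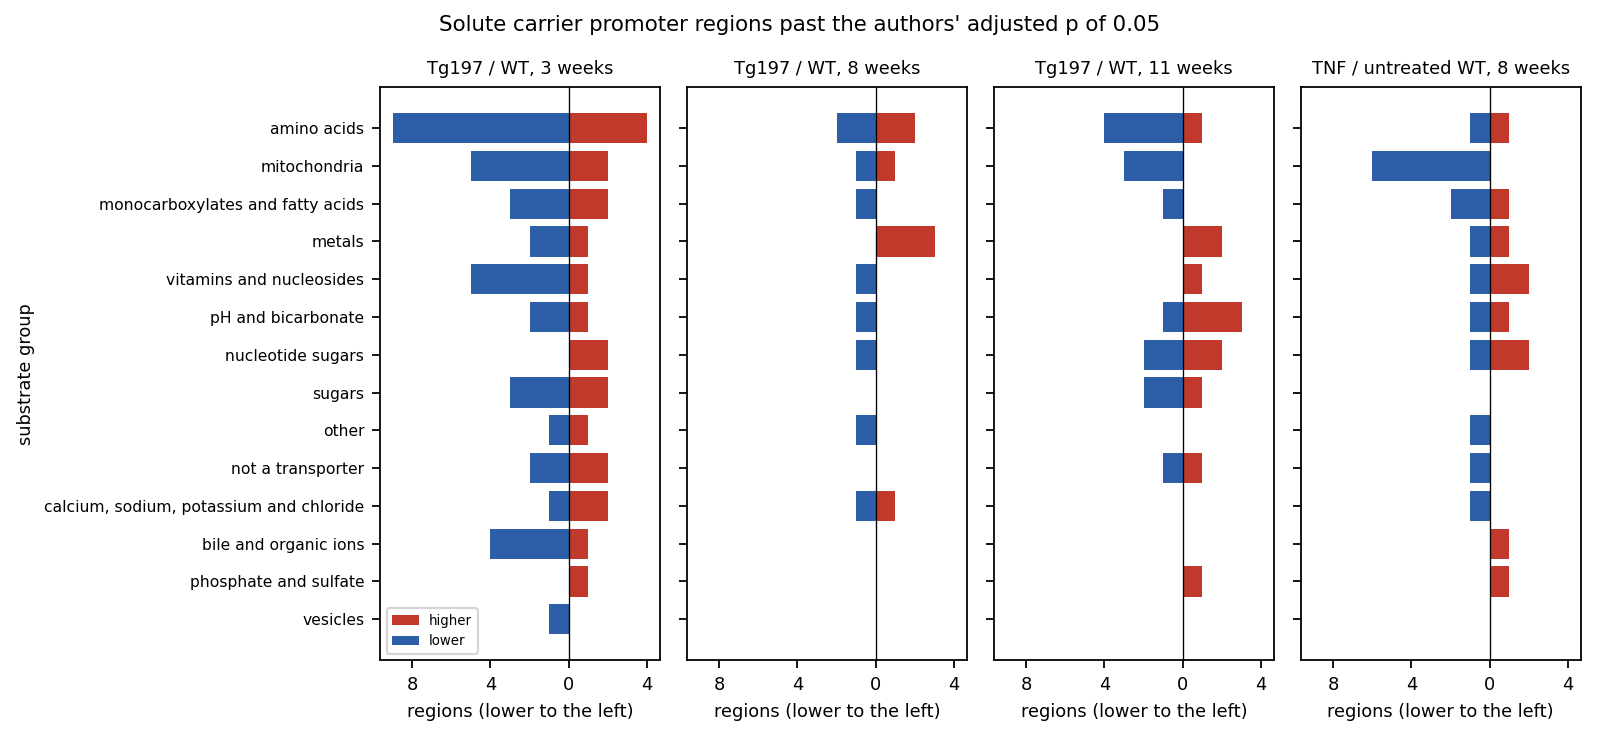
Number of SLC promoter regions past the authors' adjusted p of 0.05 (x axis, higher to the right in red and lower to the left in blue) by substrate group (y axis) in the 4 comparisons. Mitochondrial carriers have 6 lower and no higher regions with TNF (3 of the 6 became positive when scaled to listed regions), beside 57.1% lower among all listed promoter regions. Metal carriers have 3 higher and none lower at 8 weeks, beside 44.4% higher among all listed promoter regions.

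The nucleotide sugar carriers of family 35 and relatives load the endoplasmic reticulum and Golgi with substrates for glycosylation. They had 6 higher and 4 lower regions, of which 2 lower ones (Slc35b2 and Slc35e1) became positive when scaled to listed regions. Among all listed promoter regions 38.9% to 46.6% were higher and 47.3% to 58.8% lower in the 4 lists. Slc35f1 at 3 weeks showed the largest increase of any member in that list, 0.77, with 163, 178 and 187 normalized reads against 86.1, 64.8 and 159. The groups did not overlap, though 1 WT library lay close to the Tg197 range. Slc35e3 rose at 11 weeks (248, 242 and 231 against 157, 177 and 148, limma 0.58 ± 0.11 SE, adjusted p = 0.0043), and Slc35b3, which imports the sulfate donor PAPS, rose with TNF (342, 364 and 341 against 219.7, 256 and 256, limma 0.52 ± 0.12 SE, adjusted p = 0.046). Slc35b2, the other PAPS carrier, was lower with TNF (-0.50) with overlapping groups. The GDP-fucose carrier Slc35c1 was higher at 3 weeks (0.34) and Slc35d1 with TNF (0.36). Slc35a5 had one of the steeper decreases at 11 weeks, -0.95, and Slc35e1 was lower at 8 weeks (-0.62).

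Carriers that set pH and move bicarbonate or protons had 5 higher and 5 lower regions and 1 not past the threshold; 1 lower region (Slc4a2 at 8 weeks) became positive when scaled to listed regions. The bicarbonate importer Slc4a7 (NBCn1) rose at 11 weeks, with 202, 167 and 266 normalized reads in Tg197 and 159, 149 and 153 in WT, and with TNF, with 204, 241 and 215 against 134, 136 and 167. Treated libraries were above controls in both lists (limma adjusted p = 0.014 and 0.046). The related Slc4a4 rose at 11 weeks (0.51 ± 0.11 SE, limma adjusted p = 0.0043). The anion exchanger Slc4a2 was lower at 8 weeks (129.8, 132 and 119.6 against 244, 185 and 138) and with TNF (121, 101 and 126 against 221, 182 and 132). The control libraries of Slc4a2 were widely spread in both and are shared between the lists, and limma called neither. Slc4a11 fell at 3 weeks (-0.68). The anion exchanger Slc26a11 was higher at 3 weeks (0.39) with 1 Tg197 library inside the WT range. Slc9a5 was listed at 3 weeks with an authors' deposited adjusted p of 1 and a log2 change of 0.20.

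Of the cation-chloride cotransporters, Slc12a2 (NKCC1) rose at 3 weeks, with 335, 348 and 312 normalized reads in Tg197 and 221, 268 and 259 in WT (0.42 ± 0.17 SE, limma adjusted p = 0.03). Slc12a7 (KCC4) was lower at 8 weeks (95.1, 105 and 127 against 202, 182 and 167) and with TNF (172, 133 and 155 against 233, 182 and 228), and the renal Slc12a3 fell at 3 weeks (-0.65). Scaled to listed regions, Slc12a3 and, in the TNF list, Slc12a7 became positive.

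Vitamin and nucleoside carriers had 4 higher and 7 lower regions, of which 3 lower ones (Slc19a2, Slc29a3 and, with TNF, Slc29a1) became positive when scaled to listed regions. Across the 4 lists 38.9% to 46.6% of all listed promoter regions were higher and 47.3% to 58.8% lower. The proton-coupled folate carrier Slc46a1 rose at 3 weeks (312, 335 and 335 against 235, 257 and 245) and at 11 weeks (198, 181 and 194 against 169, 150.0 and 148), in overlapping regions over the start site. Libraries within each group were close together, and limma gave 0.41 ± 0.16 (SE, adjusted p = 0.027) and 0.30 ± 0.11 (SE, adjusted p = 0.023). The ascorbate importer Slc23a2 (SVCT2) fell at 3 weeks 2592.5 bp downstream (67.6, 60.3 and 69.2 against 119.7, 114 and 131) and rose with TNF at its GC-rich start site (232, 238 and 237 against 146, 167 and 201). These 2 regions do not overlap. The increase with TNF had a limma adjusted p of 0.046 and was not past the threshold by voom (log2 change 0.30, adjusted p = 0.09). Lower at 3 weeks were also the thiamine importer Slc19a2 (-0.63), Slc23a3 (-0.67) and the nucleoside carriers Slc29a2 (-0.80) and Slc29a3 (-0.65), and at 8 weeks Slc29a4 (-0.81).

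Among the remaining members the choline carrier Slc44a1 rose at 3 weeks (0.44 ± 0.17 SE, limma adjusted p = 0.024). Its relative Slc44a2 was lower at 3 weeks 2694.5 bp upstream (98.6, 89.9 and 96.4 against 159.6, 151 and 165). At 8 weeks Slc44a2 was lower in a separate region 455.5 bp downstream (82.8, 151 and 148 against 251, 259 and 197). With TNF the Slc44a2 values were 186, 56.7 and 131 against 221, 245 and 186, where the groups overlapped and the authors' deposited adjusted p was 0.33. The bile acid family member Slc10a7 rose with TNF (0.49 ± 0.13 SE, limma adjusted p = 0.046), and the haem carrier Slc48a1 fell with TNF (-0.95) and, by limma only, at 11 weeks (-0.41, adjusted p = 0.016). Slc44a3 at 8 weeks was below WT in every Tg197 library (-0.71) with an authors' deposited adjusted p of 0.051. Organic ion carriers Slc22a4 (-0.78), Slc22a20 (-0.58) and Slc22a21 (-0.58), and the phosphate and urate carrier Slc17a1 (-0.96), fell at 3 weeks, though Slc22a20 and Slc22a21 became positive when scaled to listed regions. Of the non-transporters, the scaffold Slc9a3r2 (NHERF2) rose at 3 weeks over its start site (0.47) and fell 1451.5 bp upstream at 11 weeks (-0.59) and 898.5 bp downstream with TNF (-0.86). The related Slc9a3r1 rose at 3 weeks (0.44), Slc4a1ap fell at 3 weeks 1583.5 bp downstream (-0.72) and rose at 11 weeks 683.5 bp downstream (0.31), and Slc7a6os fell at 3 weeks (-0.64; positive when scaled to listed regions).

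The deposited tables also give each region's enrichment over input, and on that scale the split between higher and lower moved. Every SLC region that was higher by normalized reads was also higher by enrichment in all 4 lists. The same held for every higher promoter region of any gene, 1193, 520 and 826 at 3, 8 and 11 weeks and 711 with TNF. Of the lower SLC regions, 4 of 38 had a higher enrichment in Tg197 at 3 weeks, 3 of 9 at 8 weeks and 0 of 14 at 11 weeks. Among lower promoter regions of any gene these were 166 of 1764, 176 of 607 and 8 of 837. With TNF 13 of 16 lower SLC regions had a higher enrichment, beside 885 of 1044 lower promoter regions of any gene. Slc25a11, for example, had a log2 change of -0.41 by reads and 0.61 by enrichment, and Slc27a3 -0.87 and 0.16. Slc39a5 was negative on both, -1.31 and -0.42. The direction given above for the TNF-lower carriers, mitochondrial ones included, is therefore that of reads under the authors' normalization. Scaled to listed regions 7 of those 16 regions, 3 of them mitochondrial, became positive.

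**Figure D4:**
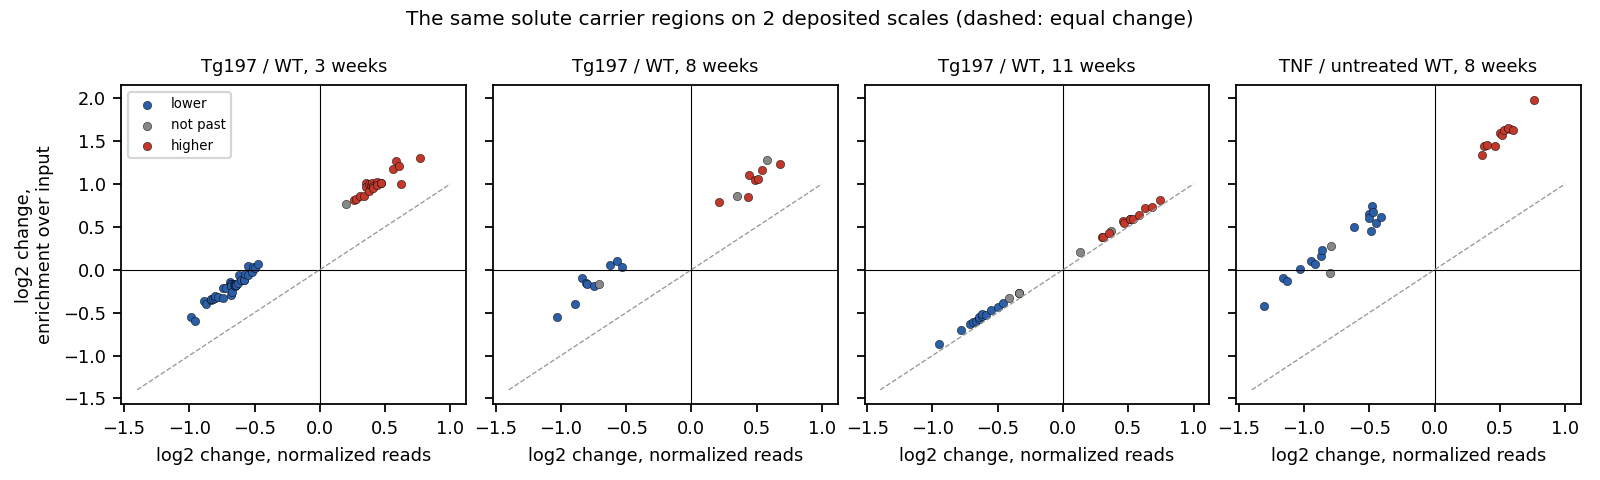
Log2 change of SLC promoter regions by the authors' enrichment over input (y axis) against that by normalized reads (x axis) in the 4 comparisons, red for higher, blue for lower and grey for regions not past the adjusted p of 0.05; the dashed line marks equal change. Points lie near the line at 11 weeks and above it elsewhere, and with TNF 13 of the 16 lower regions lie above 0 on the y axis.

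Of the 102 genes, 79 were in 1 list, 18 in 2, 5 in 3 and none in all 4. Regions past the authors' threshold in at least 2 lists, not always the same stretch, were found for 19 genes. Of these 7 were only higher (among them Slc20a1, Slc39a14, Slc2a6, Slc46a1, Slc16a3 and Slc4a7), 9 only lower and 3 in both directions. The called regions of Slc20a1, Slc2a6, Slc16a3, Slc23a2, Slc25a16, Slc25a35, Slc2a10, Slc44a2 and Slc6a9 shared no bases between lists. The share of all genes with a listed promoter that recur in this way was not computed, so the number is not a result about solute carriers.

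Related gene lists give the setting. Slco2a1, a prostaglandin transporter of a separately named carrier family, was higher at 3 and 11 weeks. ABC transporters with a listed promoter were higher and lower in 5 and 4 genes at 3 weeks, 1 and 1 at 8 weeks, 2 and 3 at 11 weeks, and 4 and 3 with TNF. Of glycolysis genes, Pfkl was higher and Eno1 lower at 3 weeks, Pgk1 was higher at 8 weeks, Gapdh, Ldha, Pfkl and Pgk1 were higher at 11 weeks and Gpi1 lower, and with TNF Ldha and Pfkp were higher and Gapdh lower. Of iron and zinc genes, the zinc-binding metallothionein Mt1 was higher at 3 weeks and with TNF, and Mt2 at 11 weeks and with TNF, while Mtf1 was higher at 3 weeks and lower with TNF, and Ftl1 had a higher and a lower region with TNF. Of amino acid response genes, Chac1 and Sesn2 were lower at 3 weeks and with TNF and Trib3 at 3 weeks, and Ddit3 was higher at 11 weeks.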

How the data were processed

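Per the labels, H3K4me3 chromatin immunoprecipitation libraries of mouse synovial fibroblasts were sequenced as 100 bp paired ends on an Illumina HiSeq. Per the submitters' processing notes, BWA and mm9 were among the tools and builds named; which program called the regions is not stated there. The deposited tables list, per region, 3 normalized read counts per group, their mean signal, a ratio of enrichment over input, a log2 change of the means, and p-values, all made by the authors; their method of normalizing libraries was not found in the labels or headers. The 8-week tables' controls were read as WT because 162 of 162 control read counts, recovered from the normalized values, agreed in the 54 regions that both list. The normalized values themselves are on a different scale in each table. The headers of the 3- and 11-week tables also name only treatment and control and were read the same way by analogy, so the directions at those ages rest on that reading. The 3 values of a cell, called a, b and c here, carry no replicate number. Each table was normalized separately, so levels were compared only within a table.

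Normalized reads + 0.5 were log2 transformed and tested with limma 3.58.1 (R 4.3.3, variance trend, Benjamini-Hochberg over all listed regions of a table), without a filter on low values; the procedure was tested on simulated data. Each value was a whole multiple of 1 read (tolerance 0.02) in 100% of values, so voom was run on the recovered reads. Alternatives were a pseudocount of 5, a mean of at least 20, other scalings, and leaving out each library. Genes named were the 10 largest increases and 10 largest decreases per table, those past the threshold in at least 2 tables, a list of carriers linked to inflammation or fibroblast metabolism, and families described. Members, lists and substrate groups were chosen with earlier results of these data known. Promoter sequences came from RefSeq (GRCm38.p6), matched by symbol and a transcript length within 30 bp; no coordinates were converted. Some genes are counted but not reported by name here.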

Additional observations from a re-analysis of the deposited data

Results flagged for a closer look

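Outside promoters, 16 gene-body regions of solute carriers rose by limma with every Tg197 library above every WT library, in data that the comparisons of promoters do not use. One was at 3 weeks, in Slc7a5, with a log2 change of 0.48. The other 15 were at 11 weeks, among them, with their log2 changes, Slc43a2 (0.56), Slc38a10 (0.52), Slc12a8 (0.75), Slc44a4 (0.55), Slc22a7 (0.64), Slc22a20 (0.52), Slc27a4 (0.59), Slc35c2 (0.51), Slc9a8 (0.55), Slc1a7 (0.74), Slc1a7 (0.75), Slc5a6 (0.72), Slc29a4 (0.53) and Slc25a42 (0.68). Of 52 SLC regions outside promoters at 11 weeks, 15 were higher and 36 lower by the authors' adjusted p, beside 23.6% higher and 74.2% lower among all listed regions outside promoters. At 3 weeks 1 of 88 was higher and 86 were lower, beside 1.21% and 98.2%. None of 18 at 8 weeks and none of 13 with TNF was higher, beside 3.99% and 3.67%, and all of them were lower, beside 94.1% and 94.3%. The 16 risen regions were all also higher by the authors' adjusted p. The share of all listed regions outside promoters that rose by limma or separated the groups was not computed. Their number is therefore not a result about solute carriers. Slc7a5, Slc27a4, Slc38a10, Slc9a8, Slc22a20, Slc29a4 and Slc25a42, among the genes of this list, also have listed promoter regions.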

How the results depend on the processing

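No paired analysis was possible because the 3 values of a group in a table carry no replicate number. Counting error bears most on regions with few reads; the smallest total over member regions was 2412 reads in 19 regions, in a WT library at 8 weeks.

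A pseudocount of 5, a mean of at least 20 and counting genes once kept each SLC count within 1.5 times its main value, as did voom on the recovered reads (13 risen and 38 fallen at 3 weeks, 0 and 0 at 8 weeks, 13 and 16 at 11 weeks, 8 and 12 under TNF). At the authors' adjusted p of 0.001 the lower count at 11 weeks went to 8, and with TNF the higher count to 5 and the lower to 8. In the proximal class alone the higher counts were 10, 0 and 3 at the 3 ages and 2 for TNF, the lower counts 1, 0, 0 and 0, and the median log2 change 0.39 and 0.37 at 3 and 11 weeks and 0.52 for TNF; no 8-week region is of that class. Scaling to listed regions gave 20 risen and 0 fallen at 3 weeks, 6 risen at 8 weeks, and 1 fallen both at 11 weeks and under TNF, and medians of 0.074, 0.18, -0.001 and 0.057 (main values -0.59, -0.53, -0.34 and -0.45). Scaling to regions within 1 kb gave 0 risen at 3 weeks, 8 fallen at 8 weeks, 8 risen at 11 weeks, 5 risen and 16 fallen with TNF, and medians of -0.93 at 3 weeks and -0.49 at 11 weeks. By the enrichment columns, an alternative chosen after seeing the data, the medians were -0.064 at 3 weeks, 0.10 at 8 weeks and 0.61 with TNF. The shifts by scaling follow from its construction; other causes were not tested.

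Leaving out one library gave 0 to 17 risen and 0 to 38 fallen regions at 3 weeks, 0 to 4 and 0 to 10 at 8 weeks, 12 to 13 and 15 to 16 at 11 weeks, and 0 to 10 and 0 to 16 for TNF; medians ranged from -0.64 to -0.45, -0.61 to -0.33, -0.36 to -0.28 and -0.64 to -0.29, in that order. Scaled to listed regions, 20 SLC regions past limma's threshold became positive: at 3 weeks Slc19a2 (0.019), Slc29a3 (0.017), Slc22a21 (0.07), Slc25a35 (0.017), Slc38a10 (0.138), Slc38a6 (0.053), Slc1a3 (0.199), Slc25a17 (0.106), Slc22a20 (0.074), Slc27a4 (0.044), Slc27a3 (0.172), Slc2a7 (0.112), Slc30a3 (0.057), Slc25a15 (0.094), Slc12a3 (0.01), Slc7a6 (0.164), Slc7a6os (0.013) and Slc38a3 (0.015), and under TNF Slc25a11 (0.092) and Slc12a7 (0.023). Of the 96 SLC regions with a limma call, 95 kept it with voom and 34 when scaled to listed regions; over the omissions of 1 library, 399 of 576 calls were kept.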
